A study of Homo sapiens with 9 samples.

Results

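Tubulin genes encode the building blocks of microtubules, and 10 of them (TUBA1A, TUBA1B, TUBA1C, TUBA4A, TUBB, TUBB2A, TUBB3, TUBB4B, TUBB6 and TUBG1) were followed across the 9 RNA-seq libraries of this study. They were chosen by symbol among the 26475 symbols of the count table and comprise 4 alpha-tubulin genes, 5 beta-tubulin genes and 1 gamma-tubulin gene. The study asked how loss of the lipid kinase PIP4K2B or a soft substrate alters the RNA of hTERT_RPE1, an established human cell line derived from the retinal pigment epithelium and immortalised with telomerase. Control cells carried the empty pLKO_1 vector and grew on glass coated with fibronectin. The sh_PIP4K2B cells grew on the same coated glass and carried a short hairpin RNA against PIP4K2B, with another hairpin (#1, #2 and #3) in each of the 3 libraries. Soft cells carried the same empty vector as Control and grew on a fibronectin-coated gel of 2.3 kPa. All cells were kept 24 h on their substrate, and each condition had 3 libraries. The treatment label of Control and Soft names a control shRNA where the titles name the empty vector. Label and titles alone do not resolve this, and the paper states the empty pLKO_1 vector for both. The labels do not say whether the 3 libraries of Control or of Soft came from separate cultures, so their spread may be technical.

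Alpha- and beta-tubulin pair into the dimer that polymerises into microtubules, the hollow filaments that carry intracellular transport, position organelles and form the mitotic spindle. Gamma-tubulin is not part of the filament wall but sits in a ring complex that starts new filaments, mainly at the centrosome. Each family has several genes, called isotypes, whose proteins differ mostly in the tail that faces outward and is a target of modifying enzymes. Cells also adjust their tubulin mRNAs to the amount of unassembled tubulin dimer. The factor TTC5 reads the start of the nascent tubulin chain on the ribosome and, with SCAPER and the CCR4-NOT deadenylase, brings about decay of that mRNA.

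That start is shown here because it divides the 10 genes by a feature of their sequence. Each line gives the first 30 coding bases of the canonical transcript (GENCODE annotation of GRCh38), with the 4 opening codons in capitals. The starts of TUBA1B and TUBA1C are identical to that of TUBA1A.
TUBA1A: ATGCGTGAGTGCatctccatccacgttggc
TUBA4A: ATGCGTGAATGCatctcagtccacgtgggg
TUBB: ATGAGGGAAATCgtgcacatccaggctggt
TUBB2A: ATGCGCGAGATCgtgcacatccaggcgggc
TUBB3: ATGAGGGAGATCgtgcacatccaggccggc
TUBB4B: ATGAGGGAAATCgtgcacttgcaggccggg
TUBB6: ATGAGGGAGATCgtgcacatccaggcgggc
TUBG1: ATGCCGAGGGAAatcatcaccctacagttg
The capitals read Met-Arg-Glu-Cys in the alpha-tubulin genes and Met-Arg-Glu-Ile in the beta-tubulin genes, the signature that TTC5 recognises. Of 19508 genes with a canonical coding sequence that starts with ATG, 19 open in either way, and all 19 are tubulin genes. The alpha and beta members account for 9 of these 19, while TUBG1 opens differently. In the alpha-tubulin genes the start codon ends exon 1, so their 30 bases lie on exons 1 and 2, as at chr12:49186807-49188979 on the minus strand for TUBA1A. In the beta-tubulin genes they lie within exon 1, as at chr6:30720507-30720536 on the plus strand for TUBB, chr6:3157434-3157463 on the minus strand for TUBB2A and chr18:12308293-12308322 on the plus strand for TUBB6.

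PIP4K2B mRNA was at 34.4% of Control in sh_PIP4K2B and at 122 CPM (counts scaled to a common library total with edgeR's TMM factors) in both Control and Soft. Library totals ran from 19217336 to 24020796 counts. The sh_PIP4K2B libraries stood apart from each other, with a median SD of log2 CPM over genes of 0.33 against 0.08 in Control and 0.07 in Soft. Tests came from 1 edgeR quasi-likelihood fit over the 9 libraries, in which the conditions have a common estimate of the spread, with Benjamini-Hochberg adjustment over the 13784 genes tested and a threshold of 0.01. Of the 10 retinal pigment epithelium markers examined, 4 had enough counts to be tested, and RPE65, TYR and LRAT were at or near 0 in all libraries. The epithelial cadherin CDH1 was likewise at or near 0, while the pigment cell factors MITF and OTX2 were present at 24.4 to 39.3 and 10.3 to 39.4 CPM.

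The tubulin members had lower mRNA levels on the soft gel, with the gamma family represented by TUBG1 alone. TUBG2, a gamma-tubulin gene outside the 10, was higher there (log2 fold change 0.80, adjusted p = 0.0023, edgeR). All 10 members were tested, and 8 passed the threshold as lower in Soft than in Control. Of all genes tested 30.6% passed, 14.8% as lower and 15.8% as higher. Scaled by library size only, the split over all genes was 1468 lower and 2484 higher in place of 2036 and 2181, and the same 8 members were lower. No member was higher. The median log2 fold change of the 10 was -0.89, beside 0.01 over all genes tested, and the values ran from -2.21 for TUBB2A to -0.43 for TUBA1A. In sh_PIP4K2B 4 members were lower (TUBA1B, TUBA1C, TUBB6 and TUBG1) and none higher, where 5.54% of all genes passed, 2.77% as lower and 2.76% as higher. Their median log2 fold change was -0.50, beside 0.05 over all genes. These comparisons share the Control libraries, so they are not independent of each other. The 4 calls in sh_PIP4K2B rested on the shared spread. No member passed 0.01 in a fit of the Control and sh_PIP4K2B libraries alone (edgeR, 8 at an unadjusted p below 0.05), where 5 of all genes passed. DESeq2 called 8 members among 1996 genes. The edgeR count was 0 when any single Control or Soft library was left out, with 66 to 338 of all genes passing. It was 7 without hairpin #1 or #2 and 4 without hairpin #3, with 1660 to 2013 genes passing. In bulk RNA, a lower level in all cells and a larger share of cells with little tubulin mRNA cannot be told apart.

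**Figure D1:**
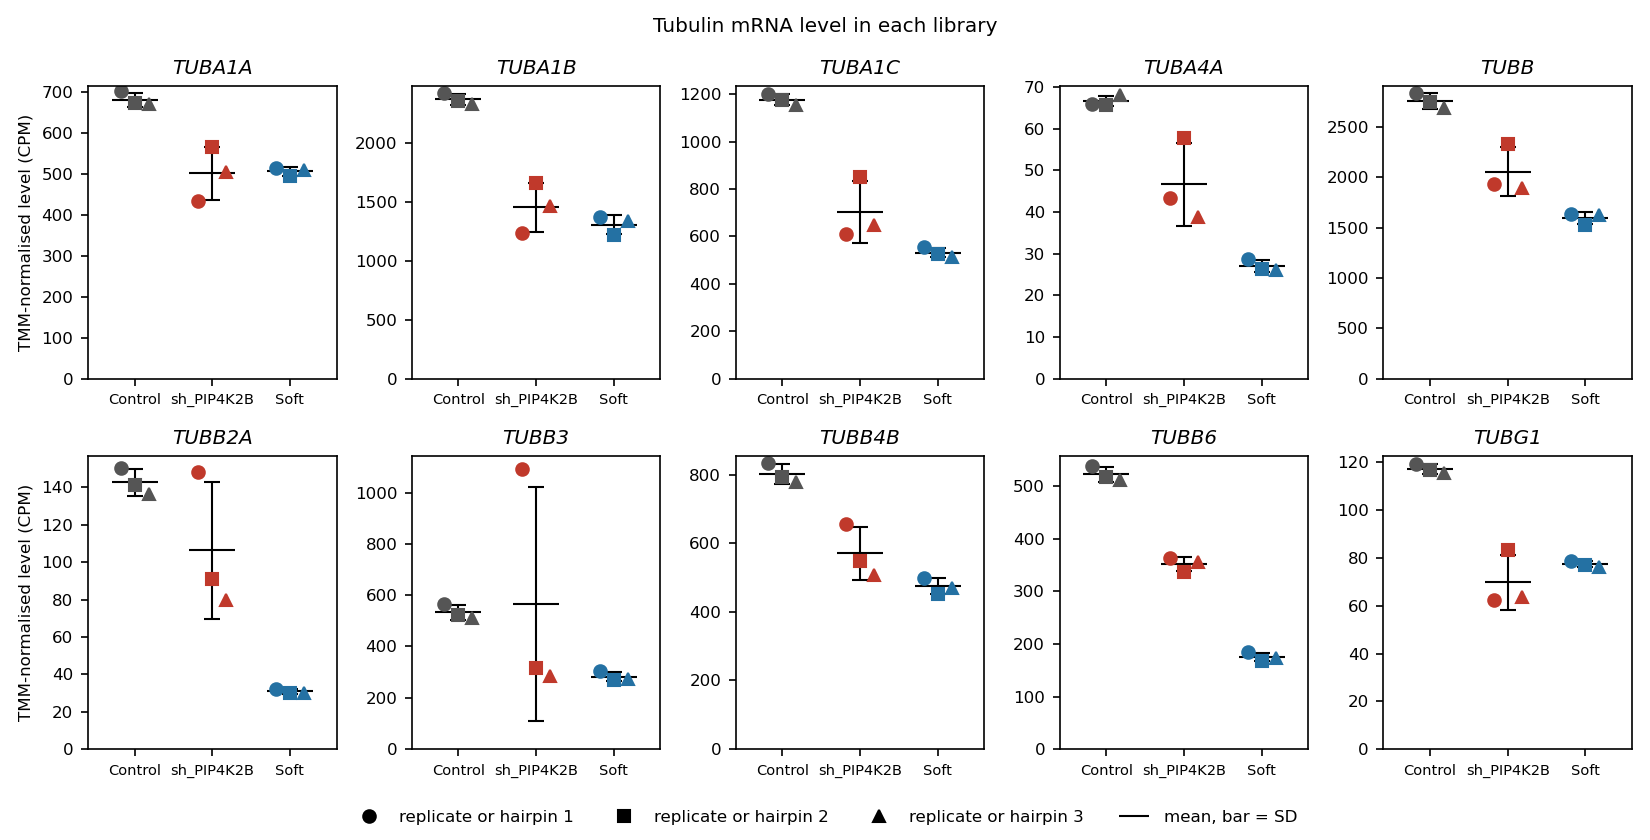
TMM-normalised level of each tubulin gene (vertical axis, CPM, starting at 0) in the 9 libraries by condition (horizontal axis). Symbols are single libraries, the horizontal line is the mean and the bar its SD (n = 3). All Soft libraries lie below all Control libraries for each of the 10 genes, and TUBB3 with hairpin #1 lies at 1092 CPM, far above the other libraries.

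TUBA1B encodes the most abundant alpha-tubulin isotype of most dividing cells (chr12:49127782-49131397, minus strand). It was at 2427, 2357 and 2336 CPM in Control, at 1241, 1661 and 1466 CPM with hairpins #1, #2 and #3, and at 1374, 1217 and 1339 CPM in Soft. Every library of the other conditions lay below every Control library, and Soft overlapped sh_PIP4K2B. The log2 fold change was -0.71 in sh_PIP4K2B (edgeR, adjusted p = 0.0096, SE 0.14) and -0.86 in Soft (edgeR, adjusted p = 9.2e-04, SE 0.14). The sh_PIP4K2B value lay close to the threshold and failed it in 11 of 17 alternative fits, with adjusted p up to 0.063 (edgeR).

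TUBA1C, a closely related alpha isotype encoded near TUBA1B (chr12:49188736-49274600, plus strand), was at 1200, 1175 and 1154 CPM in Control. With hairpins #1, #2 and #3 it was at 611, 851 and 646 CPM, and in Soft at 553, 528 and 515 CPM. The 3 conditions did not overlap. It fell by 0.74 on the log2 scale in sh_PIP4K2B (edgeR, adjusted p = 0.0087, SE 0.14) and by 1.15 in Soft (edgeR, adjusted p = 2.3e-04, SE 0.14). The sh_PIP4K2B value failed the threshold in 8 of 17 alternative fits, with adjusted p up to 0.059 (edgeR). Soft set directly against sh_PIP4K2B gave -0.40 (edgeR, adjusted p = 0.041, SE 0.14) and did not pass.

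TUBA1A is the alpha isotype best known from the developing brain, although it is expressed widely (chr12:49184686-49189080, minus strand). It was at 702, 673 and 672 CPM in Control, at 435, 566 and 505 CPM with hairpins #1 to #3, and at 516, 494 and 509 CPM in Soft. All 6 of these latter libraries lay below Control, yet neither comparison passed 0.01. The log2 fold changes were -0.44 in sh_PIP4K2B (edgeR, adjusted p = 0.034, SE 0.12) and -0.43 in Soft (edgeR, adjusted p = 0.016, SE 0.12). Without hairpin #1, #2 or #3 the Soft value passed, with adjusted p from 7.7e-04 to 0.0076 (edgeR). In those fits 5160 to 6373 of all genes passed, against 4217 in the main fit. The Soft value also passed in the fit of Control and Soft alone (adjusted p = 2.3e-08, edgeR), where 9601 of 13578 genes passed. The spread in that fit comes from the Control and Soft libraries only and may be technical.

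TUBA4A is an alpha-tubulin with a gene on another chromosome than the TUBA1 genes (chr2:219249710-219277902, minus strand). Its levels were 66.0, 65.7 and 68.1 CPM in Control, 43.4, 57.8 and 38.7 CPM with hairpins #1 to #3, and 28.6, 26.3 and 26.0 CPM in Soft. The conditions did not overlap, and Soft was the lowest. TUBA4A fell by 1.31 on the log2 scale in Soft (edgeR, adjusted p = 1.4e-04, SE 0.15). In sh_PIP4K2B the value was -0.51 (edgeR, adjusted p = 0.038, SE 0.14). Between Soft and sh_PIP4K2B it was -0.79 (edgeR, adjusted p = 0.0021, SE 0.15), which passed, although not without Soft replicate 2 or 3 or in the fit of these 2 conditions alone (adjusted p = 0.013 in each, edgeR).

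TUBB, the general beta-tubulin of proliferating cells (chr6:30717435-30725538, plus strand), was at 2841, 2744 and 2686 CPM in Control. It was at 1935, 2334 and 1898 CPM with hairpins #1 to #3 and at 1631, 1526 and 1625 CPM in Soft, again with no overlap between conditions. The log2 fold change was -0.79 in Soft (edgeR, adjusted p = 9.6e-04, SE 0.13). In sh_PIP4K2B it was -0.42 (edgeR, adjusted p = 0.048, SE 0.13), short of the threshold.

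TUBB4B encodes a broadly expressed beta isotype that is also found in cilia (chr9:137241287-137243707, plus strand). It was at 833, 792 and 779 CPM in Control, at 656, 549 and 507 CPM with hairpins #1 to #3, and at 499, 453 and 470 CPM in Soft. All 3 conditions were again separate. The log2 fold change was -0.76 in Soft (edgeR, adjusted p = 0.0011, SE 0.12) and -0.49 in sh_PIP4K2B (edgeR, adjusted p = 0.027, SE 0.12).

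The beta isotypes TUBB2A and TUBB6 had the largest changes of the 10 in Soft. TUBB6 (chr18:12307669-12344320, plus strand), a divergent isotype found in many non-neuronal tissues, was at 539, 518 and 513 CPM in Control and at 184, 168 and 174 CPM in Soft. With hairpins #1 to #3 it was at 364, 338 and 357 CPM, the narrowest spread between hairpins of any member relative to its mean. TUBB6 fell by 1.57 on the log2 scale in Soft (edgeR, adjusted p = 9.8e-06, SE 0.10) and by 0.57 in sh_PIP4K2B (edgeR, adjusted p = 0.0057, SE 0.10). The sh_PIP4K2B value failed the threshold in 9 of 17 alternative fits, with adjusted p up to 0.057 (edgeR). Soft was lower than sh_PIP4K2B by a log2 difference of -1.005 (edgeR, adjusted p = 8.4e-05, SE 0.10). No stretch of 75 bases of the TUBB6 transcript, the length of a read, occurs in another gene.

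TUBB2A (chr6:3153497-3157544, minus strand) is a beta isotype abundant in neurons and present at lower levels elsewhere. It was at 150, 141 and 136 CPM in Control and at 32.3, 30.1 and 30.2 CPM in Soft, which is 21.7% of the Control mean. Hairpin #1 gave 148 CPM, within the Control range, whereas hairpins #2 and #3 gave 90.8 and 79.8 CPM. The log2 fold change was -2.21 in Soft (edgeR, adjusted p = 6.1e-05, SE 0.21) and -0.42 in sh_PIP4K2B (edgeR, adjusted p = 0.17, SE 0.20). Without hairpin #1 the latter became -0.74 (adjusted p = 9.0e-04, edgeR), where 1660 of 13990 genes passed. Hairpin #1 was singled out for its high value, so the lower figure follows from leaving it out. Soft lay below sh_PIP4K2B by -1.78 (edgeR, adjusted p = 1.9e-04, SE 0.21). Of the 75-base stretches of TUBB2A, 56.0% also occur in its neighbour TUBB2B, so reads may be divided between them. TUBB2B was at 10.5 to 11.2 CPM in Control and 3.62 to 4.38 CPM in Soft (log2 fold change -1.40, SE 0.21, adjusted p = 6.0e-04, edgeR), lower in the same direction.

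TUBB3, the beta isotype used as a marker of neurons (chr16:89921392-89938761, plus strand), differed most between hairpins. Control libraries were at 565, 524 and 511 CPM and Soft libraries at 303, 270 and 274 CPM. Hairpin #1 gave 1092 CPM, 205% of the Control mean, while hairpins #2 and #3 gave 316 and 286 CPM, 59.2% and 53.7% of it. The mean of sh_PIP4K2B therefore describes none of its libraries, and its log2 fold change was 0.08 (edgeR, adjusted p = 0.92, SE 0.43). Without the hairpin #1 library it was -0.83 (adjusted p = 7.4e-04, edgeR), where 1660 of 13990 genes passed. That library was singled out for its high value, so the lower figure follows from leaving it out. In Soft the log2 fold change was -0.92 (edgeR, adjusted p = 0.11, SE 0.44), with the SE carrying the spread between hairpins. Without hairpin #1 the Soft value was -0.93 (adjusted p = 3.1e-05, edgeR), where 6373 of 13990 genes passed. The annotation also holds a read-through gene (ENSG00000198211) in which 92.6% of the 75-base stretches of TUBB3 occur, so reads of these genes cannot be told apart.

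TUBG1 is the widely expressed gamma-tubulin of the centrosome (chr17:42609641-42615238, plus strand). It was at 119, 117 and 116 CPM in Control, at 62.6, 83.2 and 63.6 CPM with hairpins #1 to #3, and at 78.8, 77.0 and 76.3 CPM in Soft. The lower conditions overlapped each other and not Control. The log2 fold change was -0.75 in sh_PIP4K2B (edgeR, adjusted p = 0.0044, SE 0.12) and -0.60 in Soft (edgeR, adjusted p = 0.0031, SE 0.12). In sh_PIP4K2B it failed the threshold in 8 of 17 alternative fits, with adjusted p up to 0.038 (edgeR). In Soft it no longer passed when any 1 library of Control or Soft was left out, with adjusted p from 0.013 to 0.018. The TUBG1 paralog TUBG2, a gene of lower expression outside the brain, was at 11.8 to 12.5 CPM in Control, 7.55 to 11.6 CPM with the hairpins and 20.6 to 21.2 CPM in Soft. TUBG2 rose by 0.80 on the log2 scale in Soft (edgeR, adjusted p = 0.0023, SE 0.15), opposite to TUBG1, and its value in sh_PIP4K2B was -0.33 (edgeR, adjusted p = 0.16, SE 0.15). The transcripts share 20.4% of the 75-base stretches of TUBG1.

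**Figure D2:**
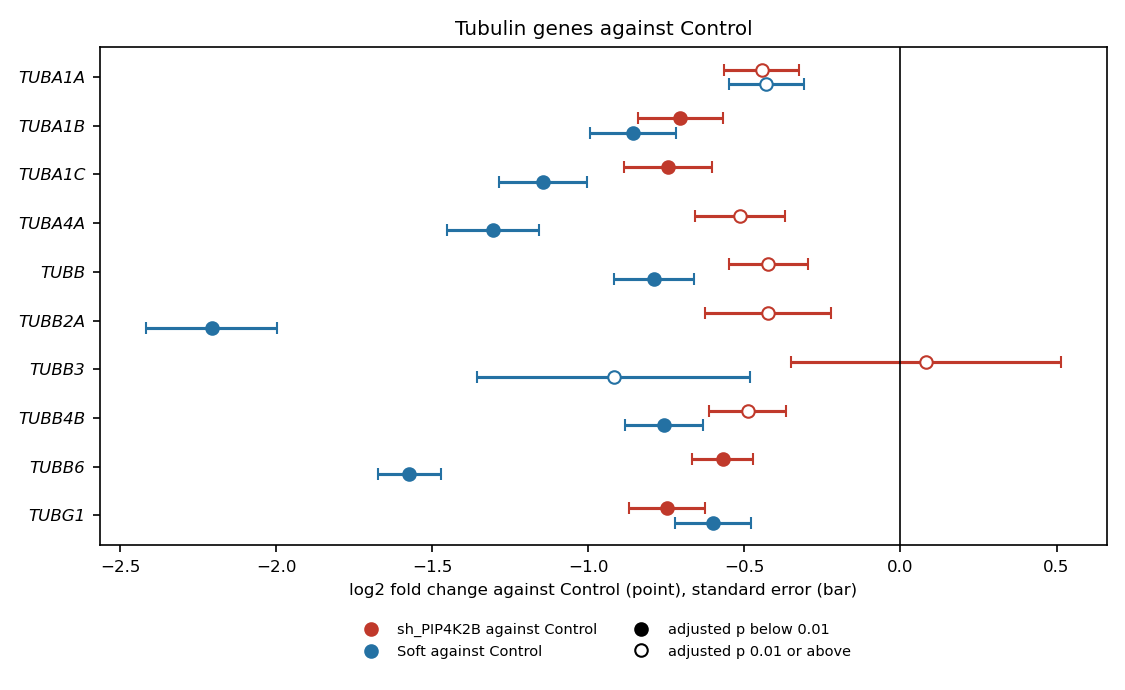
Log2 fold change against Control (horizontal axis, with its standard error as a bar) of each tubulin gene in sh_PIP4K2B and in Soft, with filled symbols for an adjusted p below 0.01. The Soft values run from -2.21 (TUBB2A) to -0.43 (TUBA1A), and TUBB3 has the widest bars, with an SE of 0.43 in sh_PIP4K2B and 0.44 in Soft.

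Counted by library rather than by fit, all Soft libraries lay below all Control libraries for 10 of 10 members, against 39.1% of genes tested. All sh_PIP4K2B libraries lay below all Control libraries for 8 members, with TUBB2A and TUBB3 the exceptions, against 16.7% of genes tested. Soft lay wholly below sh_PIP4K2B for 6 members, against 26.7% of genes tested. No member lay wholly above in any of the 3 comparisons, against 40.4%, 17.4% and 27.3% of genes in the same order. In the edgeR test of Soft against sh_PIP4K2B, 3 members were lower (TUBA4A, TUBB2A and TUBB6), none was higher, and 30% of all genes passed, 15.5% as lower and 14.5% as higher.

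Hairpin by hairpin, the median log2 ratio of the 10 members to the Control mean was -0.57, -0.51 and -0.74 with hairpins #1, #2 and #3, and -0.80, -0.97 and -0.89 in the 3 Soft libraries. With hairpin #1 the alpha isotypes TUBA1B and TUBA1C were at -0.94 and -0.95 while TUBB3 was at 1.03 and TUBB2A at 0.05. With hairpins #2 and #3 all 10 members lay below Control. Across the 9 libraries, the Pearson correlation of log2 CPM between members reached 0.986 for TUBA1C with TUBB and was lowest for TUBA1A with TUBB3, at 0.094. These correlations describe 9 points that share conditions and, between TUBA1A, TUBA1B and TUBA1C, part of their sequence.

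Added together, the 4 alpha and 5 beta members made up 0.906% of normalised counts in Control, 0.636% in sh_PIP4K2B and 0.493% in Soft. The summed alpha-tubulin level was 4299 ± 85.9 CPM in Control, against 2707 ± 405 for the hairpins and 2375 ± 104 on the gel (SD, n = 3). By hairpin it was 54.2%, 72.9% and 61.8% of the Control mean, and in Soft 57.5%, 52.7% and 55.6%. The summed beta-tubulin level was 4758 ± 155 CPM in Control, against 3650 ± 534 for the hairpins and 2557 ± 102 on the gel (SD, n = 3). By hairpin it was 88.2%, 76.2% and 65.7% of Control, and in Soft 55.7%, 51.4% and 54.1%. For each sum both conditions lay wholly below Control, and the two-sided exact permutation p was 0.10 in each case, the smallest that 3 against 3 can give. Alpha sums of Soft and sh_PIP4K2B overlapped (two-sided exact permutation p = 0.30), whereas the beta sums of Soft lay wholly below those of sh_PIP4K2B (two-sided exact permutation p = 0.10).

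Levels of different genes can be compared only per length of transcript, so CPM per kilobase of canonical transcript was used to rank them. In Control the order was TUBA1B at 1459, TUBB at 1096, TUBB4B at 513, TUBA1C at 417, TUBA1A at 408, TUBB3 at 313, TUBB6 at 278, TUBB2A at 88.2, TUBG1 at 73.0 and TUBA4A at 32.5 CPM per kilobase. The only neighbours whose Control libraries overlapped were TUBA1C and TUBA1A. In Soft, TUBA1A at 303 CPM per kilobase drew level with TUBB4B, also at 303, and TUBG1 at 48.1 passed TUBB2A at 19.1. In sh_PIP4K2B the libraries of TUBA1B overlapped those of TUBB, and TUBB4B, TUBB3, TUBA1A and TUBA1C overlapped in turn.

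The composition of the alpha-tubulin mRNA pool shifted on the soft gel, measured as each isotype's share of the summed CPM per kilobase of its family. TUBA1A made up 17.7%, 17.5% and 17.6% of the alpha pool in Control, 20.6%, 20.04% and 20.8% with hairpins #1 to #3, and 22.7%, 23.8% and 23.0% in Soft, with no overlap between conditions. TUBA1C went from 17.99% ± 0.0888 in Control to 16.9% ± 1.06 with the hairpins and 14.4% ± 0.622 in Soft (SD, n = 3). TUBA1B stayed the main isotype at 63.0% ± 0.0195, 61.0% ± 0.941 and 61.4% ± 1.12 (SD, n = 3), and TUBA4A was at 1.40%, 1.55% and 1.00%. The log2 fold change of TUBA1A in Soft was the nearest to 0 of the 4, so its larger share is a share of a smaller pool. Of the 75-base stretches of TUBA1A, TUBA1B and TUBA1C, 31.2%, 48.4% and 18.1% also occur in another gene, mostly in each other, against 3.19% for TUBA4A. The shares of these 3 isotypes therefore depend on how such reads were divided between the genes.

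In the beta-tubulin pool, TUBB held 47.9% ± 0.284 in Control and 52.2% ± 0.839 in Soft, and TUBB4B 22.4% ± 0.0561 and 24.95% ± 0.298 (SD, n = 3). TUBB6 held 12.2% ± 0.1002 in Control and 7.70% ± 0.0814 in Soft, and TUBB2A 3.85% ± 0.0652 and 1.57% ± 0.0356 (SD, n = 3). The Soft and Control libraries did not overlap for these 4 isotypes, while TUBB3 overlapped, at 13.7% and 13.6%. With hairpin #1 TUBB3 reached 30.3% of the beta pool and TUBB 36.4%, whereas with hairpins #2 and #3 TUBB3 was at 10.9% and 11.3% and TUBB at 54.6% and 50.8%. For each share that did not overlap Control the two-sided exact permutation p was 0.10, the smallest possible here. The shares depend on the transcript taken for the length, and without a length correction the TUBA1A share was 15.9% in Control and 21.3% in Soft.

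**Figure D3:**
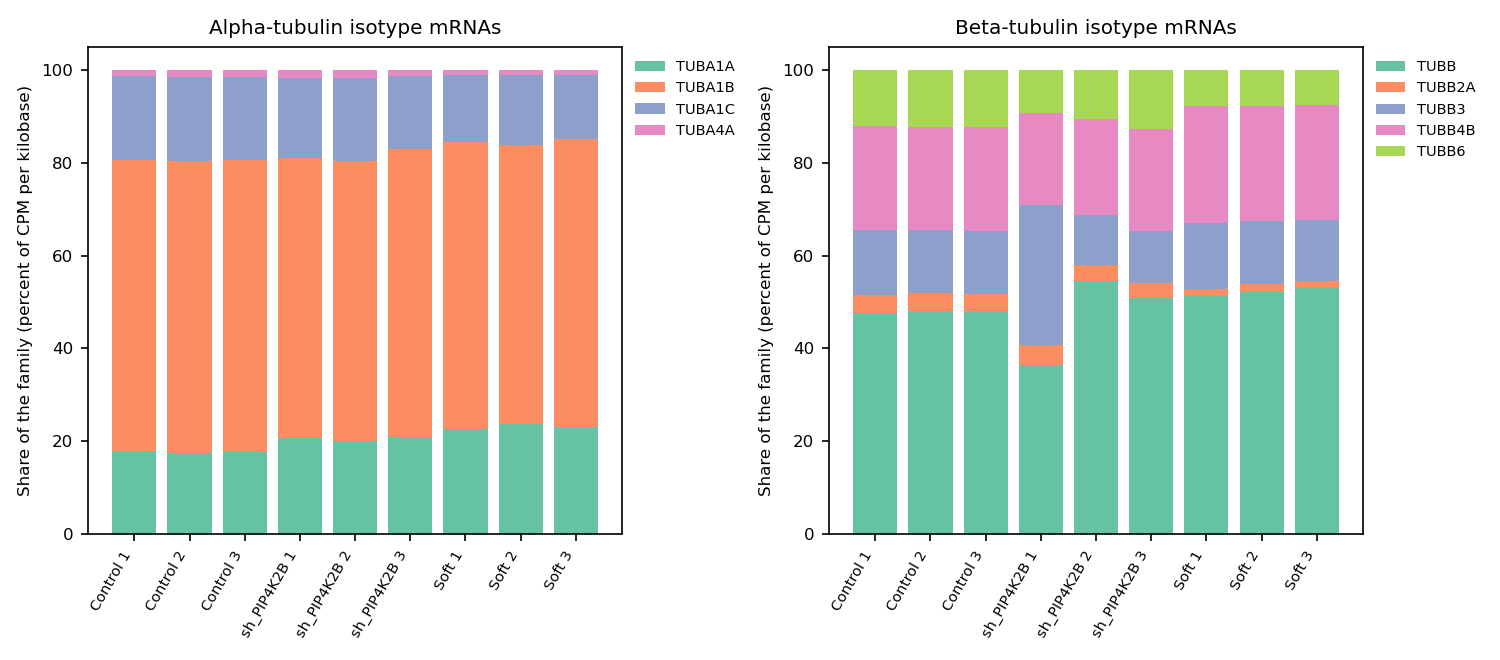
Share of each isotype in the summed CPM per kilobase (vertical axis, percent) of the 4 alpha-tubulin genes (left) and the 5 beta-tubulin genes (right) in each of the 9 libraries. The TUBA1A segment grows from 17.6% in Control to 23.2% in Soft, the TUBB6 segment shrinks from 12.2% to 7.70%, and TUBB3 takes 30.3% with hairpin #1.

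Beyond the 10 members, the table held 12 other tubulin genes, of which 6 had enough counts to be tested. None passed in sh_PIP4K2B with edgeR, where TUBB2B and TUBB4A had an unadjusted p below 0.05, and DESeq2 called 1, TUBB4A. In Soft TUBB2B and TUBB4A were lower and TUBG2 was higher. TUBB4A had only 12 to 25 counts per library in Control and 2 to 7 in Soft (log2 fold change -1.94, SE 0.48, adjusted p = 0.0090, edgeR). The centriolar tubulins TUBD1 and TUBE1 were at 2.05 to 2.15 and 5.09 to 5.87 CPM in Control, and their log2 fold changes in Soft, 0.48 and 0.33, did not pass. TUBA8 was at or under 1.33 CPM in all libraries, and its values of 1.03 in sh_PIP4K2B and 1.09 in Soft on the log2 scale did not pass. TUBA3C and TUBAL3 had 0 counts in all 9 libraries, which allows up to 3 counts, or 0.131 to 0.148 CPM, in each. TUBA3D, TUBA3E and TUBB8 were at or near 0, and TUBB1 was at 0.184 to 0.494 CPM.

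**Figure D4:**
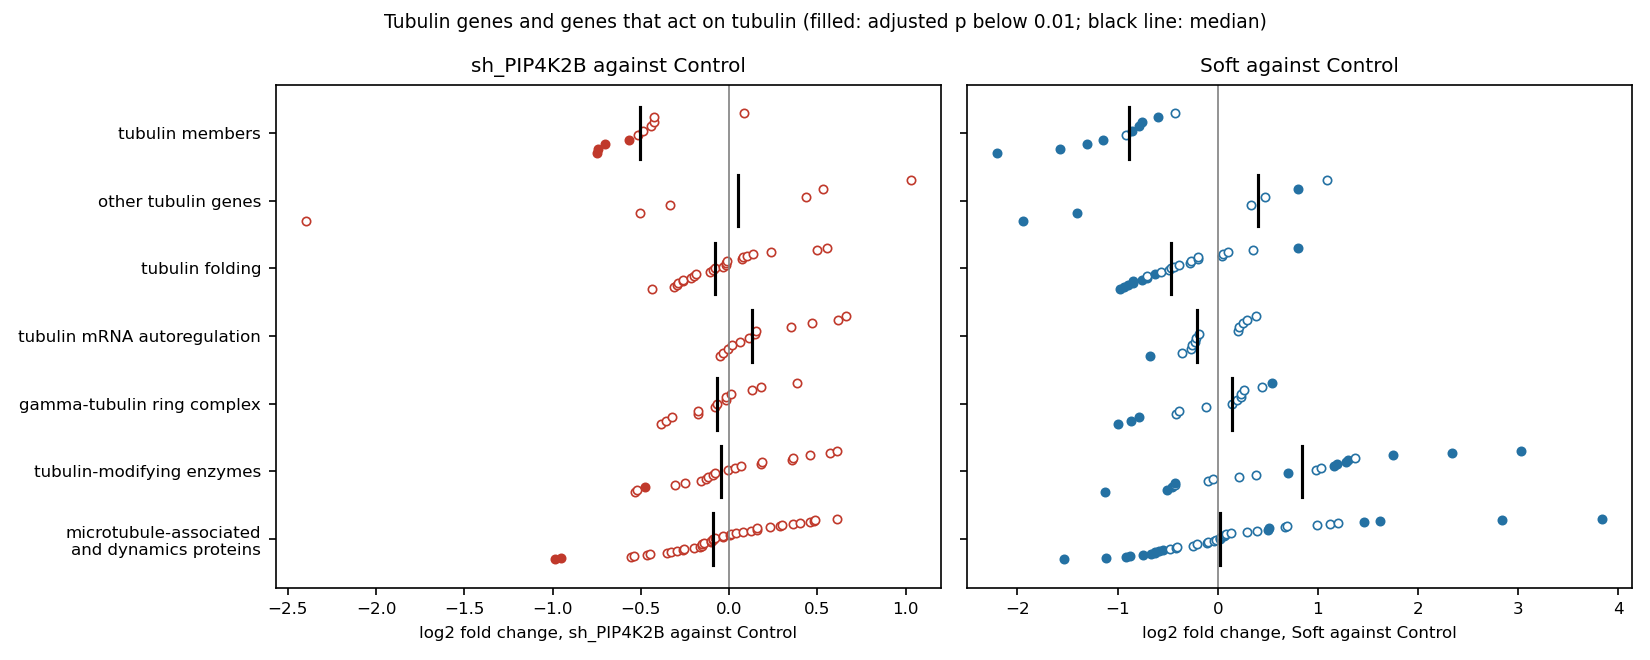
Log2 fold change (horizontal axis) of the tested genes in each list (vertical axis) in sh_PIP4K2B (left) and Soft (right) against Control, with filled symbols for an adjusted p below 0.01 and a black line at the list median, the axes of the panels differing in range. The medians of the tubulin members are -0.50 and -0.89, and in Soft the median of the tubulin-modifying enzymes is 0.84.

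The proteins that fold tubulin are the chaperonin CCT, the prefoldin complex that delivers chains to it, and the tubulin cofactors that assemble the dimer. Of 23 folding genes tested, 8 were lower and 1 higher in Soft, with a median log2 fold change of -0.47, and none passed in sh_PIP4K2B, where the median was -0.08 (edgeR, 1 at an unadjusted p below 0.05, and 0 by DESeq2). Of all genes tested 14.8% were lower and 15.8% higher in Soft, and the counts of this and the further lists are to be read against these shares. The prefoldin subunit VBP1 fell by 0.98, and the CCT subunits CCT8 and CCT5 fell by 0.93 and 0.89 on the log2 scale (adjusted p = 0.0056, 0.0097 and 0.0017, edgeR). CCT8 was at 309 to 325 CPM in Control and 165 to 167 CPM in Soft, but at 408, 337 and 185 CPM with hairpins #1, #2 and #3. The 1 gene that was higher was ARL2, a small GTPase that works with the cofactors (log2 fold change 0.80, adjusted p = 0.0014, edgeR), named after its values were seen.

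Of 12 genes of the machinery that decays tubulin mRNA, 1 was lower and none higher in Soft, and none passed in sh_PIP4K2B (edgeR, 2 at an unadjusted p below 0.05, and 1 by DESeq2). The gene that passed in Soft was CNOT7, a deadenylase subunit of CCR4-NOT, with a log2 fold change of -0.68 (adjusted p = 0.0037, edgeR). TTC5, which reads the start of the tubulin chain, was at 10.4 to 12.03 CPM in Control, 10.1 to 15.8 CPM with the hairpins and 12.996 to 14.1 CPM in Soft. Its log2 fold changes of 0.16 and 0.29 did not pass (adjusted p = 0.56 and 0.19, edgeR). TUBG1, TUBG2, TUBD1 and TUBE1 lack the signature, and in Soft TUBG1 was lower, TUBG2 was higher and the other two did not pass. Of the 9 members that carry it, 7 were lower in Soft, with log2 fold changes from -2.21 to -0.76, and TUBA1A and TUBB3 did not pass. Of the tested carriers outside the members, TUBB2B and TUBB4A were lower (-1.40 and -1.94), and TUBA8 did not pass (1.09). Of all genes tested 14.8% were lower in Soft.

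Of 13 genes of the gamma-tubulin ring complex and its anchors, 3 were lower and 1 higher in Soft, with a median of 0.14, and none passed in sh_PIP4K2B, where the median was -0.07 (edgeR, 2 at an unadjusted p below 0.05, and 1 by DESeq2). NEDD1, which attaches the complex to the centrosome, and MZT1 and TUBGCP5, subunits of the ring, were lower in Soft, by log2 fold changes of -0.99, -0.87 and -0.79 (adjusted p = 0.0016, 5.7e-04 and 4.5e-04, edgeR). The gene that was higher was CDK5RAP2, which anchors the ring complex at the centrosome (log2 fold change 0.54, adjusted p = 0.0047, edgeR), named after its values were seen. These 4 of 13 are close to the 30.6% of all genes that passed.

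A further list held the enzymes that modify tubulin after it is made, mostly at its carboxy-terminal tail. Vasohibins, VASH1 and VASH2, remove the terminal tyrosine of alpha-tubulin, and the ligase TTL puts it back. TTL was at 103 to 109 CPM in Control, 72.3 to 82.8 CPM with the hairpins and 76.6 to 79.2 CPM in Soft, and it was lower in both (log2 fold change -0.48 and -0.45, adjusted p = 0.0093 and 0.0032, edgeR). VASH1 was at 5.82 to 6.29 CPM in Control and 29.8 to 30.8 CPM in Soft, where it was higher by 2.34 (edgeR, adjusted p = 0.0029, SE 0.46). With hairpins #1, #2 and #3 VASH1 was at 17.5, 6.41 and 3.46 CPM. VASH2 was at 0.393 to 0.658 CPM in Control and 4.10 to 4.20 CPM in Soft, higher by 3.03 (edgeR, adjusted p = 1.1e-04, SE 0.33). The glycylase TTLL3 was higher in Soft by 1.75 (adjusted p = 8.5e-04, edgeR). Over the 20 tested modifying enzymes, 8 were higher and 4 lower in Soft with a median of 0.84. Of all genes tested 15.8% were higher and 14.8% lower there. In sh_PIP4K2B TTL alone passed, with a list median of -0.04 (edgeR, 5 at an unadjusted p below 0.05, and 1 by DESeq2). This 1 of 20 is close to the 5.54% of all genes that passed.

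Among 39 microtubule-associated and dynamics genes, 6 were higher and 9 lower in Soft (median 0.02), where 30.6% of all genes passed. With the hairpins 2 were lower (median -0.09), where 5.54% of all genes passed. That count depended on the method, with 10 at an unadjusted p below 0.05 (edgeR) and 8 called by DESeq2, among 1996 of all genes. The stathmin STMN3, which binds tubulin dimers, and MAP6, which stabilises microtubules, were higher in Soft by 1.62 and 1.46 (adjusted p = 0.0021 and 0.0027, edgeR). Both were scarce, at 2.37 to 2.98 and 5.46 to 6.24 CPM in Control. The more abundant stathmin STMN1, at 236 to 257 CPM in Control, rose by 0.50 (adjusted p = 0.0038, edgeR) and was named after its values were seen. KATNAL1, a severing enzyme subunit, was lower in Soft (log2 fold change -1.54, adjusted p = 1.5e-04, edgeR). In sh_PIP4K2B the spindle proteins KIF2C and TPX2 were lower (log2 fold change -0.99 and -0.95, adjusted p = 9.7e-04 and 0.0027, edgeR), and in Soft their values of 0.02 and -0.24 did not pass.

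Many cell cycle genes were also lower, and their part in the tubulin results was not tested. Of all genes tested, 2.77% were lower in sh_PIP4K2B and 14.8% in Soft. Of 43 S phase genes tested, 29 were lower in sh_PIP4K2B and 32 in Soft, with medians of -0.85 and -0.91. Of 51 G2/M genes apart from the list's tubulin gene TUBB4B, 32 were lower in sh_PIP4K2B (median -0.84) and 16 in Soft (median -0.27), and none was higher in either. Between Soft and sh_PIP4K2B, 25 of these G2/M genes were higher and 3 lower in Soft (median 0.52). Of the S phase genes, 3 were higher and 10 lower in Soft (median -0.15). Among the tubulin members 3 were lower and none higher, and of all genes tested 15.5% were lower and 14.5% higher.

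Genes whose log2 CPM followed the summed alpha and beta level most closely over the 9 libraries were ATAD3A (r = 0.992), FAM111B (r = 0.991) and NUP85 (r = 0.988), out of 7524 genes searched. ATAD3A is a mitochondrial membrane ATPase and NUP85 a nuclear pore subunit. TUBA1A and TUBB3 passed in neither comparison against Control and were not searched. The closest to the other members were RFC4 for TUBA1B (0.991), BOP1 for TUBA1C (0.997), CORO1C for TUBA4A (0.994), HEATR5A for TUBB (0.995), UBE3C for TUBB2A (0.997), HN1 for TUBB4B (0.994), UAP1 for TUBB6 (0.995) and MTHFD1 for TUBG1 (0.992). The 9 points fall into 3 conditions, so these correlations are descriptions only.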

How the data were processed

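The authors prepared stranded poly(A) libraries, sequenced paired reads of 75 nt and aligned them to GRCh38/hg38 with STAR. Per the labels, Salmon was also among the tools, with no role given. The deposited table holds estimated counts for each gene and library, unscaled. Of its values 12.3% were not whole, and all were rounded here. How reads were assigned to genes, with which annotation and strand setting, is not given in the sources used here.

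A quasi-likelihood F test (edgeR 4.0.16, R 4.3.3, TMM, filterByExpr) was fitted once over the 9 libraries by condition, without a replicate block. P-values were adjusted by Benjamini-Hochberg over all genes, with calls at 0.01, and the scripts were tested on simulated data. Sums and shares of CPM were compared by exact permutation. Likeness used log2(CPM + 0.5). A count floor of 3 covers counting error only. The 10 members, gene lists (hand-written; S and G2/M from Seurat 5.3.0) and tests were chosen with earlier results of these data known. Named genes were all tubulin genes and, per list and comparison against Control, up to 3 called genes of largest change that averaged 50 counts or more in some condition, and for likeness the 3 genes closest to the sum and the closest to each member called against Control. Of 161 list genes 160 were found. Transcripts and shared 75-base stretches came from GENCODE, and promoters from RefSeq (GRCh38.p14). Alternatives were other filters and scalings, DESeq2 1.42.0, fits of 2 conditions, a replicate block, thresholds of 0.05, leaving out each library, other transcript lengths and sums over all tubulin genes.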

Additional observations from a re-analysis of the deposited data

Results flagged for a closer look

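The response of 3 members to the soft gel differed from their response to the hairpins in the direct edgeR test of Soft against sh_PIP4K2B. This is 3 of 10, where 30% of all genes passed, so the count does not stand apart from the background. The log2 difference was -0.79 for TUBA4A, -1.78 for TUBB2A and -1.005 for TUBB6 (adjusted p = 0.0021, 1.9e-04 and 8.4e-05, edgeR), and for each the 3 Soft libraries lay below the 3 sh_PIP4K2B libraries. TUBA4A did not pass without Soft replicate 2 or 3 or in the fit of these 2 conditions alone (adjusted p = 0.013 in each, edgeR). Without hairpin #1, the number of members that differed was 5, with TUBA1C (-0.50) and TUBB (-0.42) added, while the number over all genes went from 4135 of 13784 to 5374 of 13990.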

How the results depend on the processing

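The number of members lower in Soft than in Control was 8, and 7 to 10 under the alternatives. In sh_PIP4K2B the number was 4, but 8 with DESeq2, 0 in the fit of 2 conditions, 8 at a threshold of 0.05, and 0 to 7 when 1 library was left out. For Soft against sh_PIP4K2B it was 3, but 5 at a threshold of 0.05 and 2 to 5 when 1 library was left out, with 5 without hairpin #1. Where edgeR called none in sh_PIP4K2B, 8 or 9 members had an unadjusted p below 0.05. TUBB3 in sh_PIP4K2B ran from -0.83 (without hairpin #1) to 0.40 when 1 library was left out, and TUBA1A between Soft and sh_PIP4K2B, at 0.01, ran from -0.09 (without hairpin #1) to 0.11, with -0.0001 without Soft replicate 1. Scaling by library size only moved the median of all genes in Soft from 0.01 to 0.12 on the log2 scale, and the summed alpha and beta levels in Soft to 59.5% and 57.9% of Control from 55.2% and 53.7%. The log2 fold changes of all 10 members in Soft stayed below 0 with this scaling. Over all genes the calls in sh_PIP4K2B were 763, but 1996 with DESeq2, 5 in the fit of 2 conditions, 295 with the block and 66 to 2013 when 1 library was left out. In Soft against Control they were 4217, but 9601 in the fit of 2 conditions and 2506 to 6373 when 1 library was left out, and between Soft and sh_PIP4K2B 4135, but 2183 and 2350 to 5374.

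With the replicate number as a block the count in sh_PIP4K2B was 0, TUBB3 there turned to -0.14, and the counts of the other comparisons stayed at 8 and 3. Correlations of same-numbered deviations ran from -0.10 to 0.04. With 3 libraries a condition and hairpins that differ, these cannot decide whether the numbers pair the samples. The isotype shares moved beyond 1 SD in 45 of 54 values when another or no transcript length was used. What moved the other values was not tested. Depth limits TUBB4A, TUBA8 and the genes at or near 0.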

Other observations

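Other genes used as neuronal markers were scarce beside TUBB3. Of 12 such genes 3 had enough counts to be tested, DCX, STMN2 and ELAVL4 had 0 counts in all libraries, and GAP43, a growth cone protein, was at 0.559 to 0.834 CPM in Control and 1.73 to 2.77 CPM in Soft (log2 fold change 1.65, adjusted p = 0.0012, edgeR), where TUBB3 was at 270 to 303 CPM. Of the keratin and cadherin genes, KRT18 was lower in both conditions (-1.10 and -1.31 on the log2 scale, adjusted p = 0.0018 and 1.4e-04, edgeR), KRT8 was lower in Soft (-0.98, adjusted p = 0.0033, edgeR), and vimentin did not pass. The pigment epithelium factor OTX2 was higher in both (0.65 and 1.77, adjusted p = 0.0091 and 1.4e-05, edgeR), and RDH5 was lower in sh_PIP4K2B (-2.26, adjusted p = 0.0012, edgeR). In Soft BEST1 also passed as higher, at only 0.667 to 0.775 CPM. RDH5 and MITF, at 56.2% and 71.3% of the Control mean in Soft, did not pass there. All their Soft libraries lay below all Control libraries.

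In RefSeq promoters (250 bases before to 50 after a start), searched on both strands, CCAAT occurred in 7 of the 10 members and in 39.7% of 27305 genes, GGGCGG in 8 and 48.3%, and TATAAA in 1 (TUBB2A) and 13.99%.

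The coding sequences of TUBA1A and TUBA1B are 97.2% identical, and those of TUBB2A and TUBB6, the members with the largest changes in Soft, 86.4%. On the opposite strand, TUBA1B-AS1 overlaps 72.6% of the exon bases of TUBA1B and STK16 30.6% of those of TUBA4A.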
